A study of Mus musculus with 9 samples.

Results

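The genes described here are 31 genes of cholesterol synthesis and of its control by the sterol regulatory element binding proteins (SREBPs), followed by RNA sequencing in cultured neural stem cells of the mouse, with 9 libraries. They were taken by name from the table of 54232 genes, by the role known for each. The choice was made with earlier results of these data known, so a share among them beside that of all genes is only a description. The 31 genes hold 7 enzymes of the mevalonate pathway, 11 enzymes that turn its product into cholesterol, 6 regulators, 4 fatty acid enzymes that SREBPs also control, and 3 genes of cholesterol export and of the oxysterol receptors LXR. All 31 genes were measured and all 31 passed the filter on low counts, as did 17602 genes in all.

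The cells were primary embryonic neural stem cells, with the tissue labelled as subventricular zone, the stem cell niche along the brain's lateral ventricles, kept on a laminin coat in medium holding epidermal and fibroblast growth factor. The 3 groups were cells given hairpin sh900 against Phf2, cells given hairpin sh902 against Phf2, and cells given the non-targeting hairpin shNT, which therefore went through the same kind of treatment. Phf2 encodes a histone demethylase, and a short hairpin RNA lowers the transcript it matches. RNA was taken 3 days after treatment, and each group held 3 libraries: 1 undated, 1 labelled 30 August and 1 labelled 3 September. Mouse strain, age, hairpin delivery, any selection of cells and the meaning of the dates are not stated in the labels. No label ties the libraries of a group to separate cultures or animals. A p-value here therefore weighs only library-to-library spread, and that spread may be technical.

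As background, cells build cholesterol from acetyl-CoA. The mevalonate pathway makes isoprenoid units and joins them to farnesyl diphosphate, and the sterol branch turns these into squalene, then lanosterol, then cholesterol. When membranes are low in sterol, the escort protein SCAP carries SREBPs from the endoplasmic reticulum to the Golgi, where they are cleaved and released to switch on these genes. When sterol is plentiful, INSIG proteins hold SCAP back, while oxysterols activate LXR and export genes such as Abca1. In the brain, cholesterol is made locally, since lipoproteins of the blood hardly enter it, and glial cells are a main source.

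SREBPs bind a short sterol regulatory element, often beside binding sites of NF-Y (CCAAT) and Sp1 (GGGCGG), so the promoters were searched for these letters in the 250 bases before each RefSeq start (build GRCm38.p6), on both strands. Of the 31 genes, 24 had such a window. The element TCACNCCAC was found in 1 of 24 genes, Hmgcs1, 137 bases before the start, and in 1.22% of 27025 genes with a window. The palindrome TCACGTGA, which SREBPs also bind, was found in 0 of 24 genes and in 0.907% of all genes. CCAAT was found in 20 of 24 genes (83.3%), against 37.5% of all genes and 40.3% of the 11460 genes that had a window and passed the filter. GGGCGG was found in 21 of 24 genes (87.5%), against 35.4% of all genes and 62.8% of those that passed the filter. A match is a description of letters and not a binding site, and in the windows shown no match overlapped another. The windows of the mevalonate genes Hmgcs1 and Mvd, the regulator Insig1 and the escort gene Scap are shown for their values in hairpin cells. In a fit given below, which pairs libraries by date label, Hmgcs1, Mvd and Insig1 were lower in hairpin cells and Scap was higher. The planned edgeR fit, without that pairing, called none of these genes. Capitals mark the sterol regulatory element in Hmgcs1 and CCAAT in all the windows, written ATTGG where it lies on the other strand. The windows are chr13:119690101-119690350 on the plus strand for Hmgcs1, chr8:122443423-122443672 on the minus strand for Mvd, chr5:28071162-28071362 on the plus strand for Insig1, shortened where the GENCODE transcript begins, and chr9:110333038-110333287 on the plus strand for Scap.
Hmgcs1: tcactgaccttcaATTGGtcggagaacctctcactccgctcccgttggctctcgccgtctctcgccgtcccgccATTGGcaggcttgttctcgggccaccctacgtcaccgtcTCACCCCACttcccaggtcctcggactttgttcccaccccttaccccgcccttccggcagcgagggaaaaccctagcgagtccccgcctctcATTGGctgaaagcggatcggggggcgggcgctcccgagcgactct
Mvd: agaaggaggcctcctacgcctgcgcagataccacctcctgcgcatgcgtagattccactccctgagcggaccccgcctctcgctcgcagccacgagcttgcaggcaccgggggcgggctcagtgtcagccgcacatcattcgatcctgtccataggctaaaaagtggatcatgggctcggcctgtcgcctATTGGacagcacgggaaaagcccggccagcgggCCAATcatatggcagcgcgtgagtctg
Insig1: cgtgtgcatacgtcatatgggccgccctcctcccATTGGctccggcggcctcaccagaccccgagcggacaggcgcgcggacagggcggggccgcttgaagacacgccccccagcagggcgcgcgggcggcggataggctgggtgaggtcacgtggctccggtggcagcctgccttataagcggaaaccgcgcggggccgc
Scap: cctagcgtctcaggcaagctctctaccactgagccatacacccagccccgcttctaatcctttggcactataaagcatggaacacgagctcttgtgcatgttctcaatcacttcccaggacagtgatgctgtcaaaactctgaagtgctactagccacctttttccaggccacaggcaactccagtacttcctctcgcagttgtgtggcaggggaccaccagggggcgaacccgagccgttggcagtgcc
The Scap window held none of the 4 motifs. A window that starts from a second RefSeq start, chr9:110333106-110333355, held a GGGCGG match 30 bases before that start.

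Levels are given as normalised CPM, counts scaled to a library of fixed size (CPM) after correction by edgeR's TMM factors, and values of a group stand in the order undated, 30 August, 3 September. The targeted gene Phf2 had 19.8, 14.9 and 25.5 normalised CPM in sh900 cells, 25.0, 16.9 and 28.1 in sh902 cells, and 56.3, 52.8 and 48.6 in shNT cells. All 6 hairpin libraries lay below all 3 shNT libraries, as the labels have it. The log2 fold change for the mean of both hairpins was -1.28 ± 0.20 (edgeR adjusted p = 0.182) without the date labels in the model and -1.32 ± 0.16 (adjusted p = 0.00519) with them. Library totals ran from 23212472 to 32392496 counts. Neural stem and progenitor markers were at or above 1 CPM in every library, 10 of 10, with sums of 7840 to 13200 normalised CPM in sh900 cells, 6660 to 9680 in sh902 cells and 6070 to 7110 in shNT cells. Sums of the 5 microglia markers were at most 3.34, of the 4 endothelial markers at most 7.97 and of the 4 mural and fibroblast markers at most 10.1 normalised CPM. Aif1, Cx3cr1 and Tmem119 of microglia and Cldn5 and Cdh5 of endothelium were at 0 in some libraries. The 6 astrocyte markers summed to 355 to 3240 in sh900 cells, 363 to 2240 in sh902 cells and 348 to 6020 in shNT cells. The 5 cycling markers summed to 527 to 1010 in sh900 cells and 697 to 1250 in sh902 cells, and in shNT cells to 2140 on 30 August and 155 on 3 September.

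Per kilobase of exon, the 31 genes spanned a wide range of levels. In shNT cells Scd2, which makes oleate from stearate in brain, led with 645 ± 86.5 normalised CPM per kilobase (SD, n = 3), followed by Hmgcs1 with 287 ± 71.9, Insig1 with 100 ± 21.2 and Scd1 with 86.1 ± 26.5. Insig1 and Scd1 did not differ beyond their spread. The other enzymes of both branches lay between 5.98 for Ebp and 70.1 for Cyp51 on this scale. The lowest were the LXR targets Mylip at 0.645 ± 0.424 and Abcg1 at 0.310 ± 0.225, which rested on few reads. Exons of 10 of the 31 genes overlapped those of another gene, 4 on the same strand and 7 on the opposite strand, and counting by strand is not stated, so reads of Hmgcs1 and Gm48342, Fdft1 and Ctsb, or Cyp51 and Akap9 could be shared. Srebf1 likewise overlaps Rai1 and Mir6922, and Scd2 overlaps Mir5114. Acat2 and the Scd genes have close paralogs, among which the authors' counting could split reads.

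Whether the hairpins changed these genes depended on how the libraries were compared. In the planned fit of the 3 groups, edgeR called 0 of the 31 genes, and 0 of all genes, for the mean of both hairpins. When libraries of the same date label were compared with each other (the replicate block), Hmgcs1, Mvd, Insig1, Stard4 and Scd2 were lower and Scap was higher in hairpin cells than in shNT cells, and the other 25 genes did not pass the test. Of the 3 label sets joined in this way, the undated libraries share only the lack of a date. Deviations of the undated shNT library from its group mean correlated at 0.15 (sh900) and 0.08 (sh902) within that set. Against the hairpin deviations of 3 September they correlated more closely, at 0.29 (sh900) and 0.30 (sh902). The blocked fits of all 9 libraries nonetheless keep this pairing. The 6 dated libraries alone with the block called 0 of the 31 genes and 1 of all genes. There 16 of the 31 had an unadjusted p under 0.05, but all genes at that threshold were not counted in that fit. In the blocked fit of all 9 libraries, 11 of the 31 and 5126 of all 17602 genes had an unadjusted p under 0.05. With the block in all 9 libraries, 6 of 31 genes (19.4%) were called for the mean of both hairpins, 1 higher and 5 lower, where 11.7% of all genes tested were called, 6.08% higher and 5.59% lower. The median log2 fold change of the 31 genes was -0.21, and 22 of 31 were negative. Over all genes the median was -0.02, with 52.0% negative. At an unadjusted p under 0.05 the fit without the block had 10 of the 31 genes, all lower, and 2809 of all genes. DESeq2 without the block called 5 of the 31, the same 5 lower genes, where it called 4.29% of all genes, and limma-voom called 0. A call means a Benjamini-Hochberg adjusted p under 0.05 over all 17602 genes with edgeR's quasi-likelihood F test, and each fold change carries its standard error (SE).

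The calls rested on few libraries. With the block and 1 library left out, both the count among the 31 genes and the share of all genes called moved. On omitting the undated, 30 August or 3 September sh900 library, 2, 1 and 3 of the 31 were called, where 3.59%, 5.48% and 7.89% of all genes were. On omitting the undated, 30 August or 3 September sh902 library, 4, 6 and 2 of the 31 were called, where 3.54%, 13.6% and 4.4% of all genes were. On omitting an shNT library, 4 of the 31 were called against 1.42% of all genes (undated), 4 against 19.9% (30 August) and 0 against 5.34% (3 September). In bulk RNA, fewer cells of a type and less RNA per cell cannot be told apart. In the same blocked fit, 2 of 10 neural stem and progenitor markers were higher in hairpin cells and 2 of 10 were lower. Of tested markers, 5 of 5 for neurons, 6 of 9 for the oligodendrocyte lineage and 2 of 6 for astrocytes were lower there. None of these were higher. The sums over their full lists were 613 to 1090, 475 to 869 and 691 to 1950 normalised CPM for neuron markers in sh900, sh902 and shNT cells, and 2290 to 3090, 1270 to 2020 and 1990 to 2990 for oligodendrocyte lineage markers. The part of these markers, or of the cycling markers, in the cholesterol gene results was not tested.

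**Figure D1:**
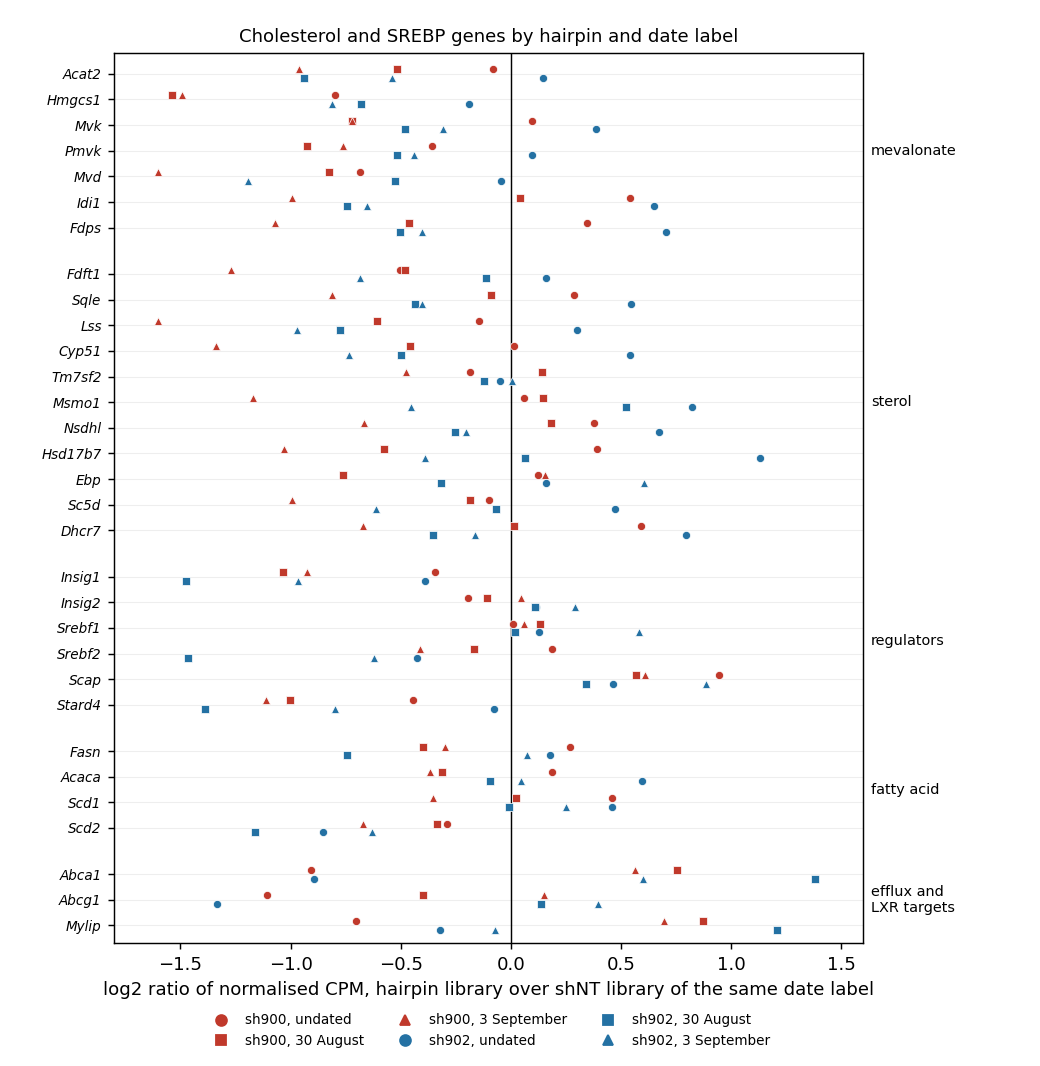
Each gene's log2 ratio of normalised CPM (x axis, 0.5 CPM added to both) in a hairpin library over the shNT library of the same date label, with sh900 in red, sh902 in blue and the label given by the symbol, for the 31 genes in their functional groups. Hmgcs1, Mvd, Insig1, Stard4 and Scd2 lie left of 0 in all 6 libraries, and the sterol enzymes of the undated sh902 library lie mostly right of 0.

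Set against the shNT library of the same label, the 31 genes had a median log2 ratio of -0.72 in sh900 and -0.40 in sh902 libraries of 3 September, of -0.34 and -0.36 in those of 30 August, and of 0.01 and 0.16 in the undated ones. The same medians over all genes tested ran from -0.01 to 0.02. The undated ratios rest on an shNT library that, as given above, correlated less with its undated partners than with 3 September hairpin libraries. In all, 5 genes were lower in all 6 hairpin libraries than in the shNT library of the same label, namely Hmgcs1, Mvd, Insig1, Stard4 and Scd2 (16.1%, against 12% of all genes), and Scap and Srebf1 were higher in all 6 (6.45%, against 12.8%). Insig1 and Stard4 were the genes whose 6 hairpin libraries all lay below all 3 shNT libraries (6.45%, against 3.03% of all genes), and 0 of the 31 had them all above (3.37% of all genes). The 30 August shNT library was the highest of the 9 for 15 of the 31 genes, while it was the highest for 12.3% of all genes. The 3 September sh900 library was the lowest for 19 of the 31, and for 6.27% of all genes.

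Of the mevalonate genes, Hmgcs1 and Mvd were lower in hairpin cells, 2 of 7 with the block, where 5.59% of all genes were called lower, and 5 of 7 did not pass the test. All 7 estimates were negative, with a median of -0.49 on the log2 scale, against -0.02 over all genes. Hmgcs1 (ENSMUSG00000093930, chr13:119690379-119708260), which joins acetyl-CoA to acetoacetyl-CoA in the cytosol, had 541, 538 and 515 normalised CPM in sh900 cells, 825, 977 and 824 in sh902 cells, and 942, 1564 and 1448 in shNT cells. The sh900 libraries lay close together and below every other library, while the highest sh902 library lay above the undated shNT library. The group means were 531 ± 14.3 in sh900, 875 ± 88.0 in sh902 and 1318 ± 331 in shNT cells (SD, n = 3 each). With the block, edgeR's log2 fold change was -0.93 ± 0.15 (adjusted p = 0.0106), and without it -0.95 ± 0.17 (adjusted p = 0.182). That call was lost without the 3 September shNT library (adjusted p = 0.0509) and stood in the other 8 fits with 1 library left out.

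Mvd (ENSMUSG00000006517, chr8:122433601-122443422), the decarboxylase that makes the first isoprenoid unit, had 28.6, 38.5 and 28.5 normalised CPM in sh900 cells, 44.7, 47.4 and 38.0 in sh902 cells, and 46.2, 68.6 and 87.4 in shNT cells. Every sh900 library lay below every shNT library, and the 30 August sh902 library lay just above the undated shNT library. The log2 fold change with the block was -0.84 ± 0.18 (edgeR adjusted p = 0.0264), and without it -0.86 ± 0.20 (adjusted p = 0.194). The call stood in 4 of 9 fits with 1 library left out, and was lost on omitting any sh900 library or the 3 September sh902 or shNT library (adjusted p up to 0.0879).

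Pmvk (chr3:89454541-89469013), the kinase before Mvd, had 21.4, 23.7 and 19.4 normalised CPM in sh900 cells, 29.6, 31.5 and 24.4 in sh902 cells, and 27.6, 45.4 and 33.3 in shNT cells. Its sh900 libraries lay below all shNT libraries and its sh902 libraries overlapped them. For sh900 the blocked log2 fold change was -0.70 ± 0.16 (edgeR adjusted p = 0.0371), while for the mean of both hairpins it was -0.50 ± 0.14 (adjusted p = 0.0532). The sh900 call stood in 1 of 9 fits with 1 library left out, the one without the 30 August sh902 library.

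Fdps, the synthase of farnesyl diphosphate, had 82.2, 118 and 43.7 normalised CPM in sh900 cells, 105, 114 and 69.7 in sh902 cells, and 64.5, 162 and 92.3 in shNT cells. Its groups overlapped, and libraries of 30 August were the highest in each group. Its blocked log2 fold change was -0.26 ± 0.23 (edgeR adjusted p = 0.503). The thiolase Acat2, the mevalonate kinase Mvk and the isomerase Idi1 had blocked fold changes of -0.49 ± 0.19, -0.31 ± 0.17 and -0.21 ± 0.28 on the log2 scale, none called. Relative to the shNT library of the same label, all 7 mevalonate genes were lower in both 3 September hairpin libraries and in the 30 August sh902 library, and 6 of 7 in the 30 August sh900 library. In the undated libraries 4 of 7 were lower with sh900 and 2 of 7 with sh902.

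**Figure D2:**
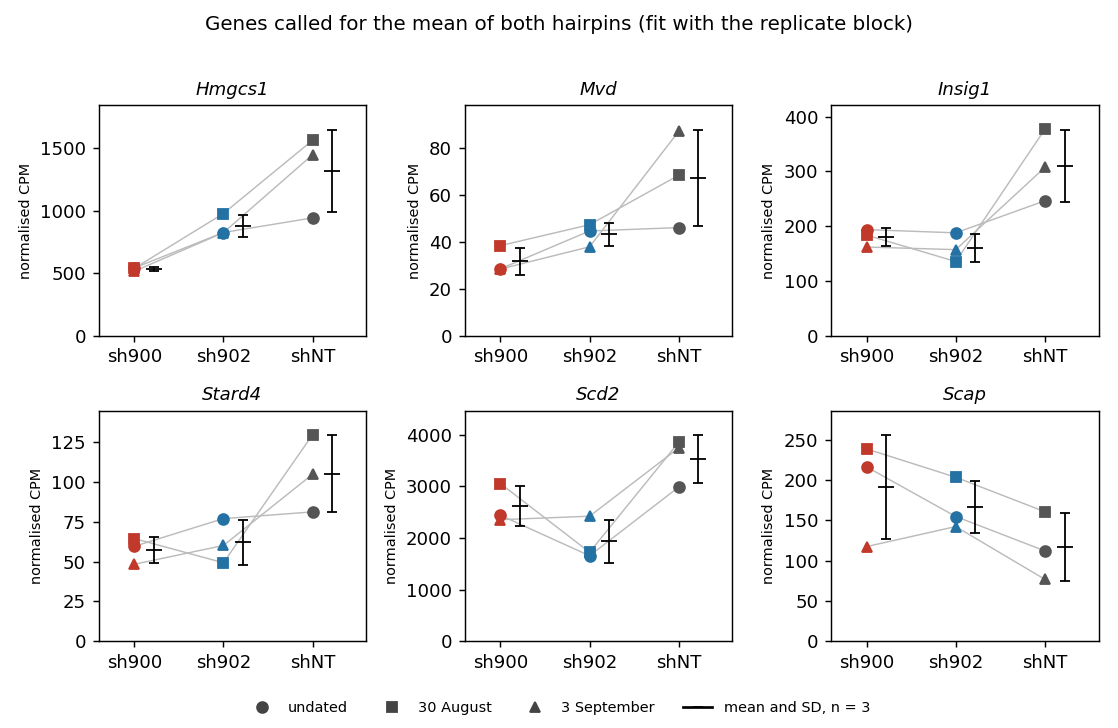
Normalised CPM (y axis, from 0) in each library of sh900, sh902 and shNT cells for the 6 genes called for the mean of both hairpins in the fit with the replicate block; symbols give the date label, lines join libraries of the same label, and bars give the mean and SD of 3 libraries. The 6 hairpin libraries of Insig1 and Stard4 all lie below the shNT libraries, and the groups overlap for Scap.

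The sterol branch enzymes did not pass the test for the mean of both hairpins in 11 of 11 cases, with or without the block, and 2 of 11 had an unadjusted p under 0.05 in either fit. Of all 17602 genes, 5126 had one with the block and 2809 without it. With the block 9 of 11 fold changes were negative, with a median of -0.12 on the log2 scale. Fdft1 (chr14:63145150-63179578), squalene synthase and the first committed step to sterols, had 73.2, 105 and 65.8 normalised CPM in sh900 cells, 116, 136 and 98.8 in sh902 cells, and 104, 147 and 159 in shNT cells. The sh900 libraries overlapped the shNT libraries by 1 library, that of 30 August, and the sh902 libraries were mostly within the shNT range. For sh900 the blocked log2 fold change was -0.77 ± 0.19 (edgeR adjusted p = 0.0446), without the block -0.75 ± 0.24 (adjusted p = 0.233), and for the mean of both hairpins with the block -0.50 ± 0.16 (adjusted p = 0.083). The sh900 call stood in 2 of 9 fits with 1 library left out, those without the 30 August sh902 or the 30 August shNT library.

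Lss, lanosterol synthase, which closes the sterol rings, had 75.8, 117 and 53.7 normalised CPM in sh900 cells, 103, 104 and 83.6 in sh902 cells, and 83.8, 178 and 164 in shNT cells. The 2 dated shNT libraries stood above all others, and the undated shNT library lay among the hairpin libraries. Its blocked log2 fold change was -0.66 ± 0.24 (edgeR adjusted p = 0.121).

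Msmo1, the methylsterol monooxygenase, had 112, 237 and 77.4 normalised CPM in sh900 cells, 190.2, 308 and 127 in sh902 cells, and 107, 214 and 175 in shNT cells. Its range over the 9 libraries, 3.98-fold, was the widest of the 18 enzymes of both branches, and its 30 August library was the highest in each group. The blocked log2 fold change was -0.04 ± 0.24 (edgeR adjusted p = 0.933). The remaining 8 sterol enzymes had blocked log2 fold changes for the mean of both hairpins from -0.44 ± 0.23 for the lanosterol demethylase Cyp51 to 0.02 ± 0.22 for Dhcr7, a late reductase of the branch. Relative to the shNT library of the same label, 10 of 11 sterol enzymes were lower in the 3 September sh900 library and 9 of 11 in the 3 September sh902 library. In the 30 August libraries 7 of 11 were lower with sh900 and 9 of 11 with sh902, and in the undated libraries 4 of 11 and 1 of 11.

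Among the regulators, Insig1 and Stard4 were lower and Scap was higher in hairpin cells in the fit with the block, and 0 of 6 were called without it. Insig1 (ENSMUSG00000045294, chr5:28071363-28078662), the sterol-dependent anchor of SCAP and itself an SREBP target, had 194, 184 and 162 normalised CPM in sh900 cells, 188, 135 and 157 in sh902 cells, and 246, 377 and 308 in shNT cells. The groups did not overlap. Means were 179.7 ± 16.3, 160.1 ± 26.3 and 310.3 ± 65.4 (SD, n = 3 each), and the blocked log2 fold change was -0.87 ± 0.17 (edgeR adjusted p = 0.0172), against -0.87 ± 0.16 without the block (adjusted p = 0.182). It was the 1 gene of the 31 called with each hairpin alone, at -0.79 ± 0.20 for sh900 (adjusted p = 0.047) and -0.95 ± 0.20 for sh902 (adjusted p = 0.0253), where 4.01% of all genes were called with both in the same direction, 2.5% higher and 1.51% lower. The call for the mean stood in 6 of 9 fits with 1 library left out, and was lost without the 30 August sh900, the 3 September sh902 or the 3 September shNT library (adjusted p up to 0.0745). Of the single hairpin calls, that for sh900 stood in 2 of 9 such fits, those omitting the 30 August sh902 or the undated shNT library (adjusted p up to 0.211). The sh902 call also stood in 2, those omitting the undated or the 30 August shNT library (adjusted p up to 0.104). Its paralog Insig2 had a blocked log2 fold change of 0.04 ± 0.12 (adjusted p = 0.861).

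Stard4, a carrier of cholesterol within the cytosol and a known SREBP target, had 59.6, 64.5 and 48.3 normalised CPM in sh900 cells, 76.9, 49.2 and 60.1 in sh902 cells, and 81.2, 129.6 and 105 in shNT cells. The highest hairpin library lay just below the lowest shNT library, both of them undated. The blocked log2 fold change was -0.82 ± 0.19 (edgeR adjusted p = 0.0339), against the same change without the block (adjusted p = 0.194). The call stood in 3 of 9 fits with 1 library left out, and was lost without any sh900 library, the 3 September sh902 library or either dated shNT library (adjusted p up to 0.128).

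Scap (ENSMUSG00000032485, chr9:110333288-110384950), the SREBP escort, had 216, 239 and 117 normalised CPM in sh900 cells, 155, 203 and 142 in sh902 cells, and 112, 161 and 76.7 in shNT cells. The groups overlapped, but within each label both hairpin libraries lay above the shNT library. The blocked log2 fold change was 0.64 ± 0.15 (edgeR adjusted p = 0.0301), and without the block 0.61 ± 0.30 (adjusted p = 0.341). The call stood in 3 of 9 fits with 1 library left out, those without the 3 September sh900, the 30 August sh902 or the 30 August shNT library (adjusted p up to 0.156 in the others). An exon of Scap overlaps 5830462I19Rik on the opposite strand, so reads of these genes cannot be told apart without strand.

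The SREBP genes themselves were not called for the mean of both hairpins. Srebf1 (chr11:60199089-60222581), whose protein favours fatty acid genes, had 250.1, 184 and 280.3 normalised CPM in sh900 cells, 271, 169.9 and 403 in sh902 cells, and 249, 168 and 269 in shNT cells. Against the shNT library of the same label its log2 ratio was 0.58 in the 3 September sh902 library and between 0.01 and 0.13 in the other 5 hairpin libraries, with a blocked log2 fold change of 0.16 ± 0.13 (edgeR adjusted p = 0.474). Srebf2, whose protein favours cholesterol genes, averaged 335 ± 69.2 normalised CPM in sh900, 205 ± 42.3 in sh902 and 365 ± 61.9 in shNT cells (SD, n = 3 each). All 3 sh902 libraries lay below all shNT libraries, and with the block the log2 fold change for sh902 was -0.82 ± 0.23 (adjusted p = 0.0561), while that for sh900 was -0.13 ± 0.22 (adjusted p = 0.747). DESeq2 called Srebf2 lower with sh902.

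**Figure D3:**
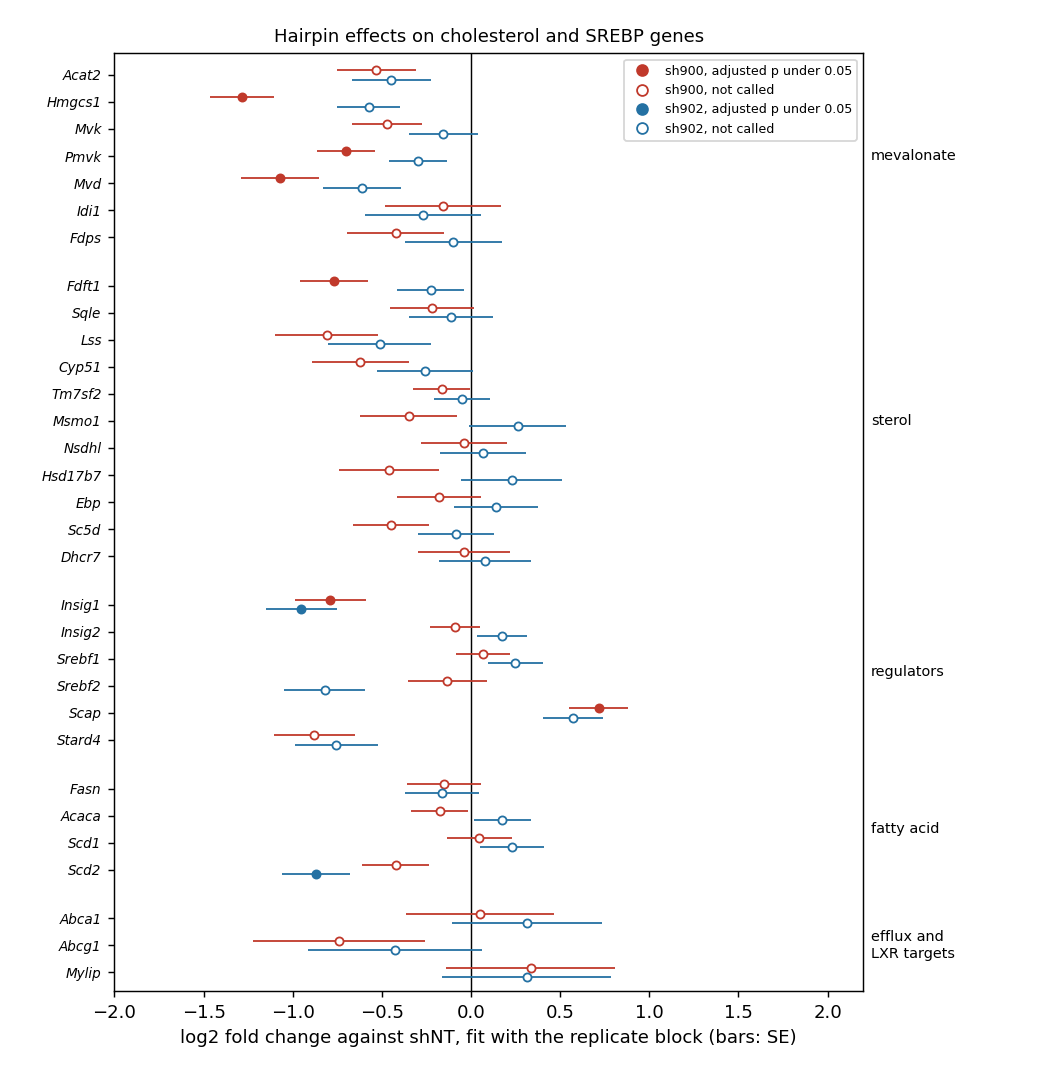
The log2 fold change against shNT cells (x axis) with its SE for each of the 31 genes, from the fit with the replicate block, sh900 in red above sh902 in blue, with filled symbols for adjusted p under 0.05 over all genes. For sh900, 6 symbols are filled, for sh902 2, and Insig1 is filled for both.

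Taken singly, sh900 had 6 of 31 genes called in the fit with the block (19.4%), 1 higher and 5 lower, where 8.85% of all genes were called, 5.39% higher and 3.45% lower. These were Hmgcs1 at -1.28 ± 0.18 (edgeR adjusted p = 0.00962), Mvd at -1.07 ± 0.22 (adjusted p = 0.0264), Pmvk, Fdft1, Insig1, and Scap at 0.72 ± 0.17 (adjusted p = 0.0373) on the log2 scale. For sh902, 2 of 31 were called (6.45%), Insig1 and Scd2, both lower. Of all genes 10.5% were called, 5.12% higher and 5.39% lower, so the share called lower was close to that of all genes. For sh902, Hmgcs1 stood at -0.57 ± 0.18 (adjusted p = 0.0771). The sh900 call of Hmgcs1 was lost when the 30 August sh900 library was left out (adjusted p = 0.0808). That of Mvd was lost when any sh900 library or the 3 September shNT library was (adjusted p up to 0.132). That of Scap was lost on omitting any sh900 library, the undated sh902, or the undated or 3 September shNT library (adjusted p up to 0.228). Without the block 0 genes were called for either hairpin. At an unadjusted p under 0.05 that fit had 8 of the 31 for sh900, with 2584 of all 17602 genes. For sh902 it had 6 of the 31, with 2776 of all genes. DESeq2 without the block called 4 for sh900, where it called 4.47% of all genes, and 3 for sh902, where it called 4.82%, and limma-voom called 0.

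Of the fatty acid enzymes, Scd2 fell in the fit with the block and the other 3 were not called. Scd2 (ENSMUSG00000025203, chr19:44293674-44306864), the stearoyl-CoA desaturase most abundant in brain, had 2438, 3051 and 2352 normalised CPM in sh900 cells, 1654, 1722 and 2419 in sh902 cells, and 2984, 3852 and 3742 in shNT cells. Only the 30 August sh900 library reached into the shNT range, where it passed the undated shNT library. The blocked log2 fold change was -0.65 ± 0.16 (edgeR adjusted p = 0.0385), without the block -0.65 ± 0.18 (adjusted p = 0.22), and for sh902 alone with the block -0.87 ± 0.19 (adjusted p = 0.0285). The call for the mean stood in 2 of 9 fits with 1 library left out, those omitting the 30 August or the 3 September sh902 library (adjusted p up to 0.136). The sh902 call stood in 2 of 9, those omitting the 3 September sh900 or the 30 August shNT library (adjusted p up to 0.164). Its paralog Scd1 had a blocked log2 fold change of 0.14 ± 0.16, the acetyl-CoA carboxylase gene Acaca of 0.00 ± 0.14 and the fatty acid synthase gene Fasn of -0.16 ± 0.18.

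The export and LXR genes were not called with the hairpins, 0 of 3 in any edgeR fit, and 0 had an unadjusted p under 0.05. Abca1, which loads cellular cholesterol onto apolipoproteins, had 413, 221 and 956 normalised CPM in sh900 cells, 416, 342 and 981 in sh902 cells, and 774, 131 and 648 in shNT cells. The hairpin libraries lay above the shNT library in both dated sets and below it in the undated set, and the blocked log2 fold change was 0.18 ± 0.37 (edgeR adjusted p = 0.795). Abcg1, a related exporter, stayed at or below 5.22 normalised CPM in every library, and Mylip, an LXR-induced ubiquitin ligase, at or below 3.52.

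Genes around the pathway were read from 5 further lists. Of the lipoprotein receptors, 1 of 4 rose and 2 of 4 fell with the block, where 6.08% of all genes rose and 5.59% fell. Vldlr, a receptor for lipoproteins and reelin, had 189, 289 and 91.3 normalised CPM in sh900 cells, 146, 184 and 80.5 in sh902 cells, and 35.5, 87.1 and 27.7 in shNT cells. Within each label both hairpin libraries were more than double the shNT library, although the groups overlapped across labels by the 30 August shNT library. Its blocked log2 fold change was 1.74 ± 0.18 (edgeR adjusted p = 0.00488), without the block 1.68 ± 0.51 (adjusted p = 0.226), and the blocked call stood in all 9 fits with 1 library left out.

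Lrp1, a large endocytic receptor, had 231, 222 and 232 normalised CPM in sh900 cells, 202, 279 and 175 in sh902 cells, and 522, 314 and 452 in shNT cells. No hairpin library reached the lowest shNT library, that of 30 August. The blocked log2 fold change was -0.94 ± 0.20 (edgeR adjusted p = 0.0233). Lrp8, the second reelin receptor, had 46.6, 63.7 and 58.2 in sh900 cells, 64.7, 78.7 and 67.6 in sh902 cells, and 93.3, 83.3 and 122 normalised CPM in shNT cells. Its groups did not overlap, and its blocked log2 fold change was -0.66 ± 0.14 (adjusted p = 0.0252). Without the block the adjusted p was 0.182 for Lrp1 and 0.194 for Lrp8, and each blocked call stood in 3 of 9 fits with 1 library left out, those without the 3 September sh900, 30 August sh902 or 30 August shNT library for Lrp1 and those without the 30 August sh900, sh902 or shNT library for Lrp8. Scarb1, the receptor for high density lipoprotein, was not called.

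**Figure D4:**
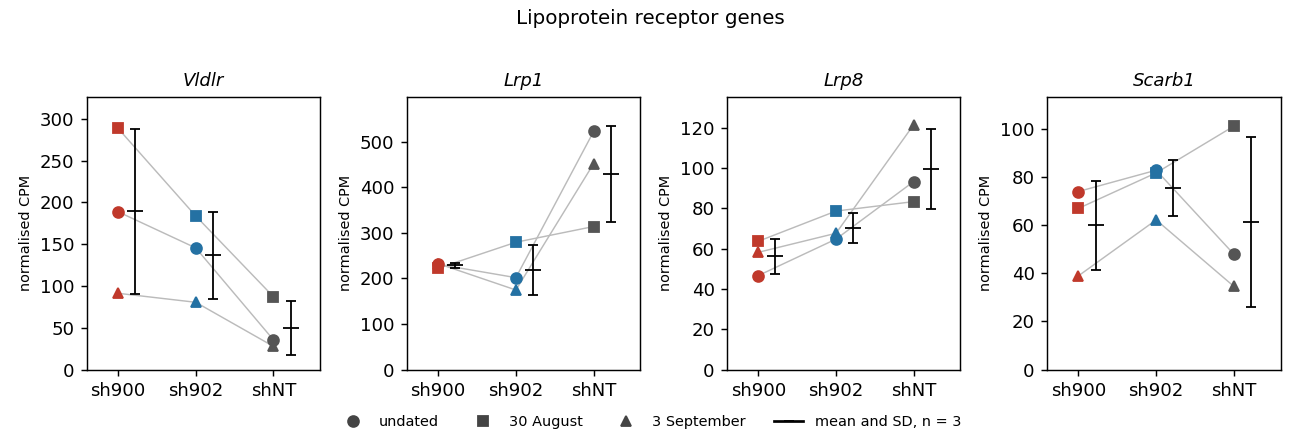
Normalised CPM (y axis, from 0) of the 4 lipoprotein receptor genes in each library of sh900, sh902 and shNT cells; symbols give the date label, lines join libraries of the same label, and bars give the mean and SD of 3 libraries. Vldlr is higher and Lrp1 and Lrp8 are lower in both hairpin libraries of each label than in its shNT library.

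Of 14 further genes of fatty acid supply and desaturation, 2 fell with the block and 0 rose, where 5.59% of all genes fell and 6.08% rose. These were the desaturase gene Fads1, at -0.61 ± 0.12 on the log2 scale (edgeR adjusted p = 0.0187), and Gpam, which starts glycerolipid synthesis, at -1.04 ± 0.26 (adjusted p = 0.0427). The Fads1 call stood in 3 of 9 fits with 1 library left out, those omitting the 3 September sh900, 30 August sh902 or 30 August shNT library. The Gpam call stood in 2 of 9, those omitting the 30 August sh902 or shNT library. Without the block their adjusted p was 0.295 and 0.373. The desaturase gene Fads2 at -0.48 ± 0.13 just missed the threshold (adjusted p = 0.0531). Of 8 genes that use isoprenoids for other products, 1 fell and 0 rose, beside the same shares of all genes. The gene that fell was the farnesyltransferase subunit gene Fnta, at -0.56 ± 0.15 (edgeR adjusted p = 0.0465, and 0.219 without the block). It stood in 2 of 9 such fits, those omitting the 30 August sh900 or shNT library. Of 12 genes of SREBP cleavage and sterol handling 0 were called, with 2 at an unadjusted p under 0.05, where 5126 of all 17602 genes were. Mbtps2, which makes the second cut that frees SREBPs, was at 0.48 ± 0.16 (adjusted p = 0.0916). Of the 9 LXR and oxysterol genes 8 could be tested and 0 were called, with 2 at an unadjusted p under 0.05, and the cholesterol hydroxylase gene Cyp46a1 was at -1.10 ± 0.36 (adjusted p = 0.0883).

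Libraries labelled 3 September differed from those of 30 August in 6 of the 31 genes, 3 higher and 3 lower. That share, 19.4%, was close to the 20.5% of all genes called in the same comparison, 10.4% higher and 10.1% lower. The test was the label term in edgeR's model of group and label. What the labels mark is not given, so this comparison describes the libraries. The LXR targets Abca1 and Abcg1 and the SREBP gene Srebf1, itself an LXR target, were higher on 3 September, while Scap, Msmo1 and Fdps were lower.

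Abcg1 had 4.32, 5.22 and 3.85 normalised CPM in the sh900, sh902 and shNT libraries of 3 September, against 0.317, 0.683 and 0.576 in those of 30 August. The sets did not overlap, and its log2 fold change was 3.15 ± 0.51 (edgeR adjusted p = 0.00571). Abca1 had 956, 981 and 648 normalised CPM in the sh900, sh902 and shNT libraries of 3 September, against 221, 342 and 131 in those of 30 August. Its lowest 3 September library was well above its highest 30 August library, and its log2 fold change was 1.93 ± 0.42 (adjusted p = 0.0225). Srebf1 had 280.3, 403 and 269 normalised CPM on 3 September, against 184, 169.9 and 168 on 30 August, in the same order of groups. It did not overlap either, at 0.85 ± 0.16 on the log2 scale (adjusted p = 0.00926).

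Scap had 117, 142 and 76.7 normalised CPM in the sh900, sh902 and shNT libraries of 3 September, against 239, 203 and 161 in those of 30 August. All 3 libraries of 3 September lay lower, and the log2 fold change was -0.86 ± 0.17 (edgeR adjusted p = 0.0113). Msmo1 and Fdps, whose values stand above, fell by 1.03 ± 0.28 (adjusted p = 0.0358) and 0.97 ± 0.27 (adjusted p = 0.0404) on the log2 scale. The calls of Abcg1 and Srebf1 stood in all 9 fits with 1 library left out. Those of Abca1 and Scap stood in 6, each lost on omitting either dated sh900 library, and also on omitting the 3 September sh902 library for Abca1 (adjusted p up to 0.107) or the 3 September shNT library for Scap (adjusted p up to 0.0797). Msmo1 stood in 4 such fits, and was lost on omitting any sh900 or either dated sh902 library (adjusted p up to 0.171). Fdps stood in 3, those omitting the 30 August sh902, the undated shNT or the 3 September shNT library (adjusted p up to 0.187 in the others).

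All 11 sterol enzymes and all 7 mevalonate enzymes had negative fold changes on 3 September against 30 August, with medians of -0.53 and -0.29 on the log2 scale, against -0.02 over all genes. The same comparison called 6 of 6 astrocyte markers, 6 of 9 oligodendrocyte lineage markers and 5 of 5 neuron markers higher on 3 September. Astrocyte marker sums were 3240, 2240 and 6020 normalised CPM in the sh900, sh902 and shNT libraries of 3 September, against 355, 363 and 348 in those of 30 August. Cycling marker sums were 790, 1120 and 155, against 527, 697 and 2140. The part of these markers in the label difference was not tested.

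**Figure D5:**
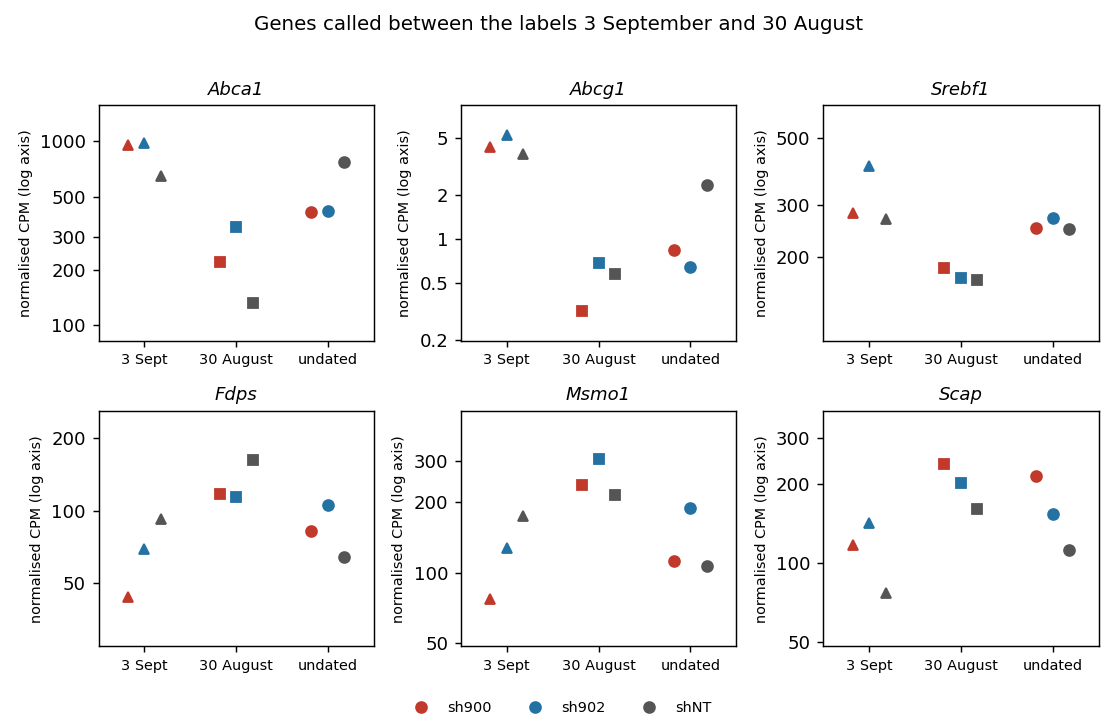
Normalised CPM on a log axis for the 6 genes called between the labels, with libraries of 3 September, 30 August and no date from left to right and sh900 in red, sh902 in blue and shNT in grey. Abca1, Abcg1 and Srebf1 are higher in all 3 libraries of 3 September than in those of 30 August, and Fdps, Msmo1 and Scap are lower.

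Between the hairpins, sh902 cells had 0 of 31 genes called against sh900 cells in edgeR's fit with the block, where 4.22% of all genes were called, 1.74% higher and 2.48% lower. At an unadjusted p under 0.05 that fit had 6 of the 31 and 3999 of all 17602 genes. Without the block edgeR called 0 of the 31, with 2 of the 31 and 2532 of all genes at an unadjusted p under 0.05. DESeq2 without the block called 1, Hmgcs1, where it called 5.88% of all genes, and limma-voom 0. Hmgcs1 was higher in each sh902 library than in every sh900 library, at 0.71 ± 0.18 on the log2 scale with the block (adjusted p = 0.0635). All 11 sterol enzymes had positive values in sh902 against sh900 cells, with a median of 0.32, against 0.01 over all genes. These values share their libraries with the comparisons against shNT.

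Whether the hairpin effect differed between the labels was tested as the difference of the hairpin effects on 3 September and on 30 August, with 1 shNT library for each label. Of the 31 genes 0 were called by edgeR, DESeq2 or limma-voom, and 0 had an unadjusted p under 0.05, where edgeR called 1.39% of all genes, 1.37% higher and 0.017% lower. Estimates ran from -1.12 ± 0.61 for Msmo1 to 0.95 ± 0.48 for Ebp on the log2 scale, so these counts do not show that the effects were alike.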

How the data were processed

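The authors deposited estimated counts for 54232 genes in 9 libraries, all whole numbers; per the submitters' processing notes reads went through Trimmomatic 0.36 and cutadapt, with FastQC, and RSEM with STAR 2.5.0a on GRCm38. Annotation and strand setting are not given there. RSEM shares ambiguous reads by a model, so paralogs and overlapping genes are uncertain. Symbols and positions came from GENCODE M21, promoters from RefSeq. Counts were analysed in R 4.3.3 with edgeR 4.0.16 (quasi-likelihood F test, robust, TMM, default expression filter, 17602 genes, 1 model of 3 groups), adjusted over all genes at 0.05. DESeq2 1.42.0 and limma 3.58.1 were alternatives. An SE is the log2 fold change over the square root of F. The planned model had no block. Values with the block, which pairs libraries by the date in their titles, are given because they change calls. Deviations from group means correlated at 0.40 to 0.63 within 30 August, 0.46 to 0.64 within 3 September, 0.08 to 0.40 among undated libraries, which share only the lack of a date, and -0.66 to 0.30 between labels. Libraries of a group differed by a chi-square of at least 56.5 per degree of freedom, far above sampling noise. The fits were tested on simulated data. Genes and lists were chosen with earlier results of these data known, and the promoter motifs after the values were seen. Values in every library were given for up to 14 of the 31 genes, first those called in any comparison, then those with the largest blocked change, and for at most 4 genes of each surrounding list by smallest blocked adjusted p. Library totals ran from 23212472 to 32392496 counts. Alternatives were the block, DESeq2, limma-voom, no low-count filter, a fit of dated libraries, and fits that each omitted 1 library.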

Additional observations from a re-analysis of the deposited data

Results flagged for a closer look

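Between the hairpins, edgeR's fit with the replicate block called 4.22% of all genes. Of the surrounding lists, it called 1 of 8 isoprenoid genes, 2 of 12 genes of SREBP processing and sterol handling and 1 of 8 tested LXR and oxysterol genes. It called 0 of 14 genes of fatty acid supply and desaturation and 0 of 4 lipoprotein receptor genes. In that fit the 4 called genes had different estimates against shNT with sh902 than with sh900. The farnesyltransferase subunit gene Fnta had 31.9, 26.1 and 36.7 normalised CPM in sh902 cells and 51.3, 64.4 and 54.6 in sh900 cells, at -0.86 ± 0.17 on the log2 scale (adjusted p = 0.0387). Mbtps1, the protease that makes the first cut in SREBPs, had 154, 144 and 148 in sh902 cells and 242, 291 and 198 normalised CPM in sh900 cells, at -0.70 ± 0.14 (adjusted p = 0.0402). Lipa, the lysosomal lipase that frees cholesterol from its esters, had 44.1, 46.5 and 48.6 in sh902 cells and 24.6, 23.3 and 30.2 normalised CPM in sh900 cells, at 0.84 ± 0.16 (adjusted p = 0.0323). Abcg4, a sterol exporter of neural cells, had 7.15, 13.5 and 10.8 in sh902 cells and 3.08, 4.04 and 5.97 normalised CPM in sh900 cells, at 1.26 ± 0.27 (adjusted p = 0.0455). The hairpin groups did not overlap for any of these 4 genes, but the calls stood in 2, 1, 3 and 2 of 9 fits with 1 library left out, every one being lost on omitting any sh900 or sh902 library. Likewise, without the block edgeR called 0 of them (adjusted p = 0.0778 for Lipa), while DESeq2 called all 4.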

How the results depend on the processing

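With the replicate block, edgeR called 6 of the 31 genes for the mean of both hairpins, 6 for sh900, 2 for sh902 and 0 for sh902 against sh900, where without it the counts were 0. With the block 11.7%, 8.85%, 10.5% and 4.22% of all genes were called in these comparisons. DESeq2 without the block called 5, 4, 3 and 1 of the 31 in them, where it called 4.29%, 4.47%, 4.82% and 5.88% of all genes. Testing all genes with any count called 1 of the 31 for sh900, Hmgcs1, where it called 0.152% of 38220 genes. That setting moved the median log2 fold change of all genes to -0.26 for sh900. The 6 dated libraries alone called 0 of the 31 genes with and without the block, and so did the fits without the block that left out 1 library. With the block and 1 library left out, the counts ran from 0 to 6 for the mean, 0 to 7 for sh900, 0 to 3 for sh902 and 0 to 2 for sh902 against sh900, while the share of all genes called ran from 1.42% to 19.9%, 0.482% to 15.9%, 0.247% to 20.6% and 0% to 10.9%. For the labels the count ran from 2 to 10 and the share from 5.99% to 21.9%. The label effect on hairpins could not be fitted without either dated shNT library, and stayed at 0 in the other 7. Uncalled estimates for the mean of both hairpins changed sign. Msmo1 was at -0.044 with the block, -0.0126 with limma-voom, -0.0869 in the dated libraries and -0.29 there with the block. With 1 library left out it ran from -0.22 to 0.30 without the block and -0.28 to 0.38 with it, where it was -0.061, -0.11, -0.12 and -0.0269 on omitting the undated sh900, 30 August sh900, undated sh902 and 30 August sh902 library, and -0.22 on omitting the 30 August shNT library. Abcg1 was at 0.24 in the dated libraries and 0.061 there with the block, and ran from -1.03 to 0.44 without and -1.09 to 0.090 with the block. Abca1 ran from -0.35 to 0.52 without and -0.21 to 0.83 with it, at -0.031 on omitting the 3 September shNT library, and Fdps from -0.53 to 0.18 without it. The cause was not tested.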
